A study of Mus musculus with 10 samples.

Results

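The p53 axis was described here through 10 genes: Trp53, which encodes the transcription factor p53, its inhibitors Mdm2 and Mdm4, and the target genes Ccng1, Phlda3, Perp, Bax, Bbc3, Trp53inp1 and Trp53i11. The genes were chosen by name from the expression matrix of a mouse glioma model, and they were 10 of its 23230 features. They were selected on results already known for these libraries, among them the high Trp53i11 of the tumour-derived cells. The changes of the 10 genes are therefore given as a description, with no test.

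RNAseq covered 10 libraries in 3 groups. AstroEGFR* (3 libraries) were C57BL/6 cortical astrocytes of postnatal day P5 that lacked p16/p19 and carried a retroviral human EGFRvIII, a constitutively active receptor written EGFR*. PT (4 libraries) were glioma propagating cells grown from the tumours that such astrocytes formed in CD1 Nude mice. AstroEGFR* Zfp423 (3 libraries) were AstroEGFR* that also overexpressed the zinc finger factor Zfp423 from a second vector. All cells, controls included, lacked the Ink4a/Arf products p16 and p19 and carried EGFR*, and all were below passage 10. Each AstroEGFR* and AstroEGFR* Zfp423 library came from 1 of 3 astrocyte batches. Batch 1 gave rise to PT1 and PT4, batch 2 to PT2 and batch 3 to PT3. AstroEGFR* were grown with serum and PT without serum in EGF and FGF2 on laminin, so that the medium and the passage through a tumour cannot be told apart.

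p53 is a tetrameric transcription factor that is kept low by Mdm2, a ubiquitin ligase whose own gene p53 activates, and by the related Mdm4. DNA damage, oncogenes and other stresses release p53 from Mdm2, and p53 then induces genes of cell cycle arrest, repair and apoptosis. The Arf product p19 binds Mdm2 and so frees p53 when oncogenes are active, and Ink4a/Arf loss is one of the common lesions of high-grade glioma. In cells without Arf, damage kinases and other routes can still reach p53.

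Each p53 dimer contacts a half-site of 10 bases, and a full site is a pair of half-sites. To show what such a site looks like beside these genes, the RefSeq promoters of mouse assembly GRCm38.p6 (250 bases before to 50 after the annotated start) were searched for the best pair of p53 consensus half-sites with 0 to 13 bases between them. The consensus reads alike on both strands. Promoters were at hand for 8 of the 10 genes, all but Perp and Trp53inp1. Where a gene had several (Mdm4 2, Bbc3 3, Cdkn1a 2), its best one is given, while the shares are counted per promoter. Of all 32851 promoters of this length, 359 (1.09%) held a pair with at most 1 mismatch. Ccng1 and Bax were the 2 genes of the 8 that did. Cdkn1a, the classical p53 target and cell cycle inhibitor p21, is printed as a reference, and its best promoter held a pair with 0 mismatches, as in 0.0731% of promoters, while the other had 5 mismatches. Trp53i11 is shown because it differed most between the groups, and its best pair had 4 mismatches. The best pairs of the other members had 3 or 4 mismatches (Trp53 3, Mdm2 4, Mdm4 3, Bbc3 3, Phlda3 4). The promoters are chr11:40755237-40755536 (minus strand) for Ccng1, chr7:45466849-45467148 (minus strand) for Bax, chr17:29090729-29091028 (plus strand) for Cdkn1a and chr2:93187298-93187597 (plus strand) for Trp53i11. They are written along the gene, with the best pair of half-sites in capitals.
Ccng1: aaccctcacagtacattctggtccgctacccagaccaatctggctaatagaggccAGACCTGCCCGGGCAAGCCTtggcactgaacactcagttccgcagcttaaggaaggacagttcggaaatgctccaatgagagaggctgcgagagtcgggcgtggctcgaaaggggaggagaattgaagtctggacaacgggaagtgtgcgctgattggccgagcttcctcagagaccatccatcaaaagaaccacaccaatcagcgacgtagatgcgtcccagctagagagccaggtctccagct
Bax: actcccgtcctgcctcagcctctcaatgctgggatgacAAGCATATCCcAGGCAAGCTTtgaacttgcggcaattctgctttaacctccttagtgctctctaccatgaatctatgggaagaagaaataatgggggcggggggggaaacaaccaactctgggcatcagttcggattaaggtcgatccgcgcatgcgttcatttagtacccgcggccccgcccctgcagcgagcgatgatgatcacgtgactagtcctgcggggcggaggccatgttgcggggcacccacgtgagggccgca
Cdkn1a: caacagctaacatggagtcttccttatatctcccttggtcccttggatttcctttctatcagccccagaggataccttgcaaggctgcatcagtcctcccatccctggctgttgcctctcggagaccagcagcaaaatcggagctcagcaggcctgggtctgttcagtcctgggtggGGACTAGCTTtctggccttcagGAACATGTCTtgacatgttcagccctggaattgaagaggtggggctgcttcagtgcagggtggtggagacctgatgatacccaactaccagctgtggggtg
Trp53i11: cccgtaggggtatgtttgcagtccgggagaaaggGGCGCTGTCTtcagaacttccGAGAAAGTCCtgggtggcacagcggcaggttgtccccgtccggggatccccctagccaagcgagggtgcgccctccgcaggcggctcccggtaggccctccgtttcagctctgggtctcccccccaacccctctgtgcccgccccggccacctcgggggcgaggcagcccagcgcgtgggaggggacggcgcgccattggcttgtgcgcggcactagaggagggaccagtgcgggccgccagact

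The half-sites of Ccng1 were adjacent and began 195 bases before the start, those of Bax were 1 base apart and began 212 bases before it, and those of Cdkn1a were 12 bases apart and began 73 bases before it. The start is that of the promoter printed. For Cdkn1a this is 1 of 2, and the other (chr17:29093519-29093818) lies further along the gene. The search kept 1 pair per promoter, so that other pairs in the printed letters are not in capitals. A match is a description of the letters and does not show that p53 bound there. No match says only that these letters were not in the window, since many p53 sites lie further upstream or in introns.

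Expression was given as FPKM, the fragments of a gene scaled to its length and to the mapped fragments of the library, so that levels can be compared between genes. No fragment counts were used, and the depth of each library is unknown, so no counting interval is given. FPKM summed to between 361102 and 860068 per library. Small non-coding RNA and histone features took 0.801% to 54.8% of that sum, and the share was above 35% in all 3 AstroEGFR* Zfp423 libraries. Some genes that every cell uses were listed near 0 (Gapdh between 0.0106 and 50.1 FPKM, Hmgcs1 at 0 throughout), so that a low value is given as listed and does not show that a transcript was absent. Zfp423 was at 15.7, 9.73 and 105.1 FPKM in AstroEGFR* Zfp423 1, 2 and 3, above the 3.25 to 4.30 FPKM of AstroEGFR*.

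Some libraries stood apart from their labels. The summed FPKM of 8 microglia and macrophage markers was 802.9 and 402.4 in AstroEGFR* Zfp423 1 and 2, against 1.23 in AstroEGFR* Zfp423 3, 2.42 to 10.1 in AstroEGFR* and 1.94 to 36.7 in PT. The summed FPKM of 7 astrocyte markers was 57.2 in AstroEGFR* Zfp423 2 and 186.0 in AstroEGFR* Zfp423 1, against 422.0 to 1032 in AstroEGFR*, 344.7 to 729.6 in PT and 871.2 in AstroEGFR* Zfp423 3. In AstroEGFR* Zfp423 2, 6 of the 7 were below 2 FPKM (Gfap 1.11, Aqp4 0.0266), and Gja1, at 52.2 FPKM, made up most of the sum. The summed FPKM of 6 fibroblast and meningeal markers ranged from 312.2 to 5138 in AstroEGFR* (highest in AstroEGFR*3), from 1.08 to 371.6 in PT and from 228.3 to 6273 in AstroEGFR* Zfp423. The summed FPKM of 6 oligodendrocyte lineage markers was 412.0 and 588.3 in PT1 and PT4, against 89.8 and 65.7 in PT2 and PT3, 50.9 to 129.7 in AstroEGFR* and 14.4 to 151.9 in AstroEGFR* Zfp423, and each PT was above the AstroEGFR* of its batch. Most of the sum in PT was Olig2, a factor of oligodendrocyte precursors and glioma cells (328.0, 72.9, 39.7 and 360.4 FPKM in PT1 to PT4). Sox10, the lineage factor, was 8.18 and 117.3 FPKM in PT1 and PT4 and at most 0.103 FPKM elsewhere, and Mog stayed below 0.1 FPKM in every library. The part of these markers in the PT values below was not tested. Over all features, the deviation of AstroEGFR* Zfp423 2 and 3 from their group mean correlated at -0.11 and -0.26 with that of the AstroEGFR* library of the same number, and at 0.31 and 0.22 with that of the number 3 and the number 2 library. The pairs within batches 2 and 3 with Zfp423 were taken from the labels, although the deviations over all features did not pair them, and the signs of these differences depend on that pairing. Fewer cells of a type and less RNA per cell cannot be told apart in such libraries.

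Ordered by their median over the 10 libraries, the genes ran from Bax (111.8 FPKM) and Ccng1 (103.8 FPKM) through Phlda3 (60.9 FPKM), Trp53 (47.0 FPKM), Mdm2 (42.3 FPKM), Trp53inp1 (20.6 FPKM), Mdm4 (11.5 FPKM), Trp53i11 (11.1 FPKM) and Bbc3 (7.02 FPKM) to Perp (0.486 FPKM). The order pools the 3 groups and does not hold for Trp53i11 in PT, where its median was 103.4 FPKM, against 4.02 FPKM in AstroEGFR*. The ranges of neighbours in this order overlapped throughout. Bax was above Ccng1 in 5 of 10 libraries, Phlda3 above Trp53 in 6, Trp53 above Mdm2 in 6 and Mdm4 above Trp53i11 in 5, whereas Bbc3 was above Perp in 10 of 10. The least variable member was Ccng1, whose highest level was 1.84 times its lowest, and the most variable was Trp53i11 with 188 times. Mdm2, Trp53 and Mdm4 stayed within 2.06, 2.42 and 2.52 times.

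**Figure D1:**
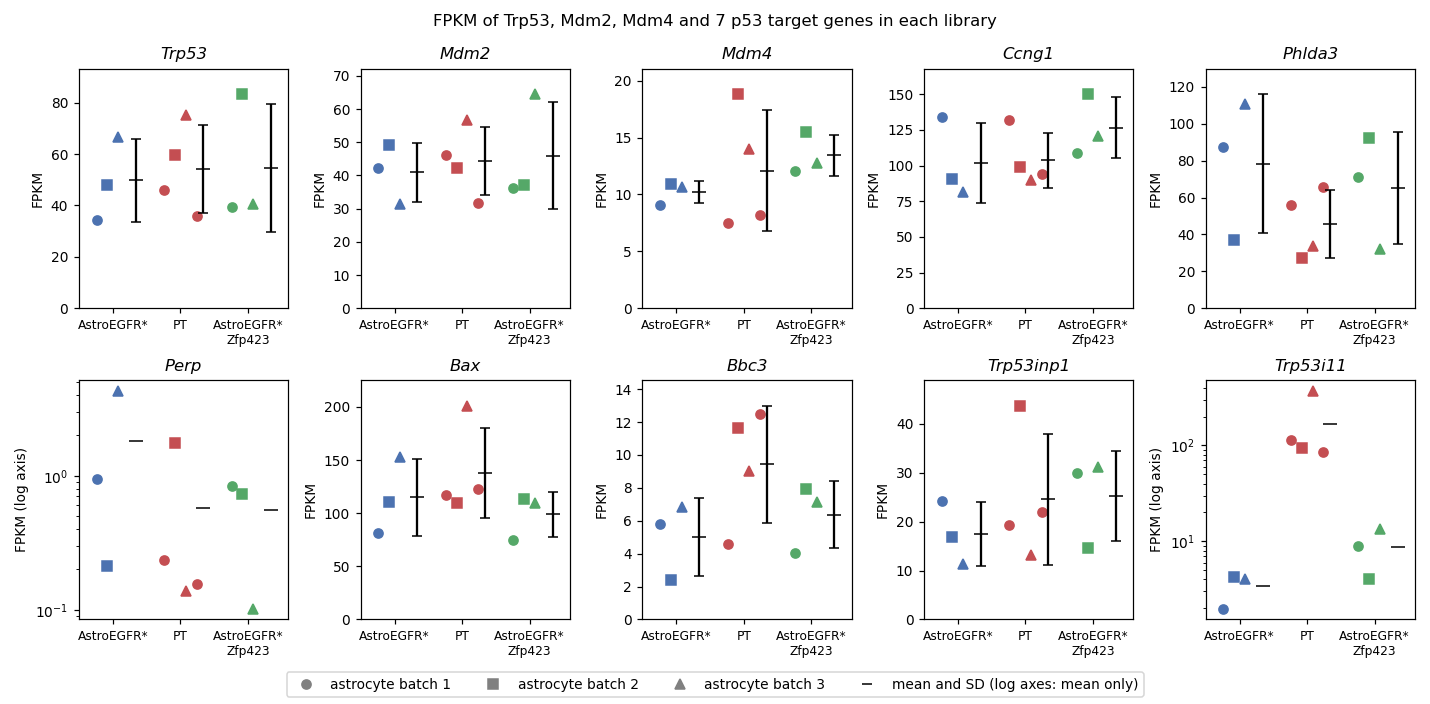
FPKM of the 10 genes in each of the 10 libraries, with the groups on the horizontal axis, the astrocyte batch as the symbol, and the group mean with SD as the black bar (mean alone on the log axes of Perp and Trp53i11). The groups overlap in all panels except Trp53i11, where the 4 PT libraries lie between 85.1 and 372.4 FPKM and the others between 1.98 and 13.3 FPKM, and Mdm4, where all 3 AstroEGFR* Zfp423 libraries lie above the 3 AstroEGFR* libraries.

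Trp53 itself was expressed in every library. It was at 34.4, 48.1 and 66.7 FPKM in AstroEGFR*1, 2 and 3 (49.7 ± 16.2, SD, n = 3), while PT1 to PT4 had 45.9, 59.5, 75.2 and 36.0 FPKM (54.2 ± 17.0, SD, n = 4). AstroEGFR* Zfp423 1, 2 and 3 had 39.5, 83.3 and 40.6 FPKM (54.5 ± 25.0, SD, n = 3). All 3 groups overlapped. The log2 fold change on log2(FPKM + 1) was 0.12 (SE 0.34) in PT and 0.09 (SE 0.36) in AstroEGFR* Zfp423, so both were smaller than their errors in these fits. The value in PT was -0.12 without AstroEGFR*1 and 0.35 without AstroEGFR*3, and that with Zfp423 was -0.26 without batch 2. Within batches every PT was above its AstroEGFR*, by 0.06 to 0.41 on the log2 scale, with PT1 and PT4 set against the same library. With the batch as a replicate block the log2 fold change in PT was 0.24 (SE 0.16), larger than its error.

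Mdm2, the ubiquitin ligase that sends p53 to the proteasome, is itself a p53 target. Its level was 42.3, 49.1 and 31.3 FPKM in AstroEGFR*1, 2 and 3 and 46.3, 42.3, 56.6 and 31.9 FPKM in PT1 to PT4. It was 36.2, 37.2 and 64.5 FPKM in AstroEGFR* Zfp423 1, 2 and 3. The groups overlapped, and the 3 means lay between 40.9 and 45.9 FPKM with SDs of 8.98 to 16.1. The log2 fold change was 0.11 (SE 0.27) in PT, where it became -0.20 without AstroEGFR*3 and PT3 together, and 0.13 (SE 0.37) in AstroEGFR* Zfp423. The latter rested on batch 3, where Mdm2 was 1.02 higher with Zfp423 on the log2 scale, and it was -0.31 without that batch.

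Mdm4, which binds and masks the activation domain of p53, was lower than Mdm2 in every group mean. It was at 9.08, 10.9 and 10.6 FPKM in AstroEGFR*1, 2 and 3, and at 12.1, 15.4 and 12.8 FPKM in AstroEGFR* Zfp423 1, 2 and 3, so that these groups did not overlap. Such a gap was present in 11.5% of the 12366 features compared. The log2 fold change was 0.36 (SE 0.22), between 0.25 and 0.46 within the batches. In PT1 to PT4 Mdm4 was 7.46, 18.8, 14.0 and 8.16 FPKM, which spanned the AstroEGFR* values, and the log2 fold change was 0.14 (SE 0.34), or -0.09 without PT2.

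Ccng1 encodes cyclin G1, which recruits a phosphatase to Mdm2. It was among the most abundant members, at 133.8, 90.5 and 81.5 FPKM in AstroEGFR*1, 2 and 3 and 131.8, 98.9, 90.1 and 93.8 FPKM in PT1 to PT4. The mean was 103.7 ± 19.1 in PT (SD, n = 4) beside 101.9 ± 28.0 in AstroEGFR* (SD, n = 3), and the log2 fold change was 0.04 (SE 0.27), with either sign over the other settings (-0.10 to 0.25). In AstroEGFR* Zfp423 1, 2 and 3 it was 108.6, 150.1 and 121.0 FPKM, a log2 fold change of 0.33 (SE 0.31) with overlapping groups that became 0.64 without batch 1 and 0.13 without batch 2.

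Phlda3, a pleckstrin homology domain protein that keeps Akt from the membrane, varied more. It was 87.5, 36.9 and 110.5 FPKM in AstroEGFR*1, 2 and 3, 56.2, 26.9, 33.5 and 65.5 FPKM in PT1 to PT4, and 71.1, 92.3 and 32.0 FPKM in AstroEGFR* Zfp423 1, 2 and 3. The PT values overlapped with those of AstroEGFR*, and the log2 fold change was -0.72 (SE 0.47), which became -1.18 without AstroEGFR*2 and -0.29 without AstroEGFR*3 and PT3 together. Each PT was nonetheless below the AstroEGFR* of its own batch, by a log2 difference of -0.41 to -1.69, with PT1 and PT4 set against the same library. With the batch as a replicate block the log2 fold change was -0.85 (SE 0.28). With Zfp423 it was 0.813 times its AstroEGFR* level in batch 1, 2.50 times in batch 2 and 0.289 times in batch 3, by the numbers of the labels. The direction in batches 2 and 3 depends on that pairing, since AstroEGFR* Zfp423 2 and 3 lie below AstroEGFR*3 and AstroEGFR*2. The summed fibroblast markers were also lower in each PT than in the AstroEGFR* of its batch (34.7 and 8.28 FPKM in PT1 and PT4 against 312.2 FPKM, 1.08 FPKM in PT2 against 509.7 FPKM, and 371.6 FPKM in PT3 against 5138 FPKM). They were higher in AstroEGFR* Zfp423 2 (6273 FPKM) than in AstroEGFR*2 (509.7 FPKM) and lower in AstroEGFR* Zfp423 3 (228.3 FPKM) than in AstroEGFR*3 (5138 FPKM), and their part in the Phlda3 values was not tested.

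The cell death genes were Bax, Bbc3 and Perp. Bax, the effector that permeabilises mitochondria, was 81.3, 110.3 and 153.2 FPKM in AstroEGFR*1, 2 and 3 and 117.6, 109.3, 201.2 and 122.8 FPKM in PT1 to PT4. It was 74.6, 113.2 and 109.5 FPKM in AstroEGFR* Zfp423 1, 2 and 3. The groups overlapped, with log2 fold changes of 0.26 (SE 0.33) in PT and -0.19 (SE 0.25) in AstroEGFR* Zfp423. The former lay between 0.04 without AstroEGFR*1 and 0.49 without AstroEGFR*3, and the latter became -0.30 without batch 2 and -0.04 without batch 3.

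Bbc3 encodes Puma, a BH3-only protein that neutralises the survival members of the Bcl2 family. It was 5.83, 2.37 and 6.87 FPKM in AstroEGFR*1, 2 and 3 and 4.58, 11.6, 9.05 and 12.5 FPKM in PT1 to PT4. PT2, PT3 and PT4 were above all AstroEGFR* while PT1 was not, and the log2 fold change was 0.81 (SE 0.43). It became 0.43 without AstroEGFR*2, the library with the lowest value. AstroEGFR* Zfp423 1, 2 and 3 had 4.05, 7.91 and 7.17 FPKM, a log2 fold change of 0.34 (SE 0.46) that became -0.19 without AstroEGFR* Zfp423 2 and 0.73 without AstroEGFR* Zfp423 1.

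Perp, a membrane protein of desmosomes, was near the bottom of the scale. It was 0.945, 0.213 and 4.30 FPKM in AstroEGFR*1, 2 and 3, 0.236, 1.75, 0.137 and 0.156 FPKM in PT1 to PT4, and 0.831, 0.735 and 0.102 FPKM in AstroEGFR* Zfp423 1, 2 and 3. Only AstroEGFR*3 and PT2 exceeded 1 FPKM. The log2 fold changes of -0.68 (SE 0.60) in PT and -0.61 (SE 0.73) with Zfp423 were close to their errors. The former was -1.36 with a pseudocount of 0.1. The latter was 0.21 without AstroEGFR* Zfp423 3 and -1.18 without AstroEGFR*2. Without AstroEGFR*3 the mean of Perp fell below the 1 FPKM that was set as a filter on low values.

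Trp53inp1 encodes a nuclear protein that promotes p53 phosphorylation and takes part in autophagy. It was 24.3, 16.8 and 11.3 FPKM in AstroEGFR*1, 2 and 3 and 19.3, 43.7, 13.1 and 22.0 FPKM in PT1 to PT4, with PT2 highest. AstroEGFR* Zfp423 1, 2 and 3 had 29.9, 14.7 and 31.2 FPKM. All groups overlapped, and the log2 fold changes were 0.39 (SE 0.43) in PT and 0.50 (SE 0.38) in AstroEGFR* Zfp423. Both rested on 1 library or batch, since the value in PT was 0.08 without PT2 and 0.65 without AstroEGFR*1, and that with Zfp423 was 0.05 without batch 3.

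Trp53i11, first described as a p53-induced transcript and less studied than the others, stood apart from the rest. It was 1.98, 4.26 and 4.02 FPKM in AstroEGFR*1, 2 and 3 and 112.8, 94.1, 372.4 and 85.1 FPKM in PT1 to PT4. The groups did not overlap, which held for 14.8% of all features compared, and the lowest PT, PT4, was still far above the highest AstroEGFR*, AstroEGFR*2. The ratio of the means was 48.6, and 28.5 without PT3, the library with by far the highest value. The log2 fold change was 4.99 (SE 0.53) and ranged from 4.51 to 5.34 over 17 other settings. Within the batches PT1, PT2, PT3 and PT4 were higher by 5.25, 4.18, 6.22 and 4.85 on the log2 scale. In AstroEGFR* Zfp423 1, 2 and 3 the level was 8.89, 4.03 and 13.3 FPKM, which overlapped with AstroEGFR* and lay far below PT. The log2 fold change there was 1.06 (SE 0.47), made of 1.73 in batch 1, -0.07 in batch 2 and 1.52 in batch 3, and it ranged from 0.73 to 1.74 over 14 other settings.

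**Figure D2:**
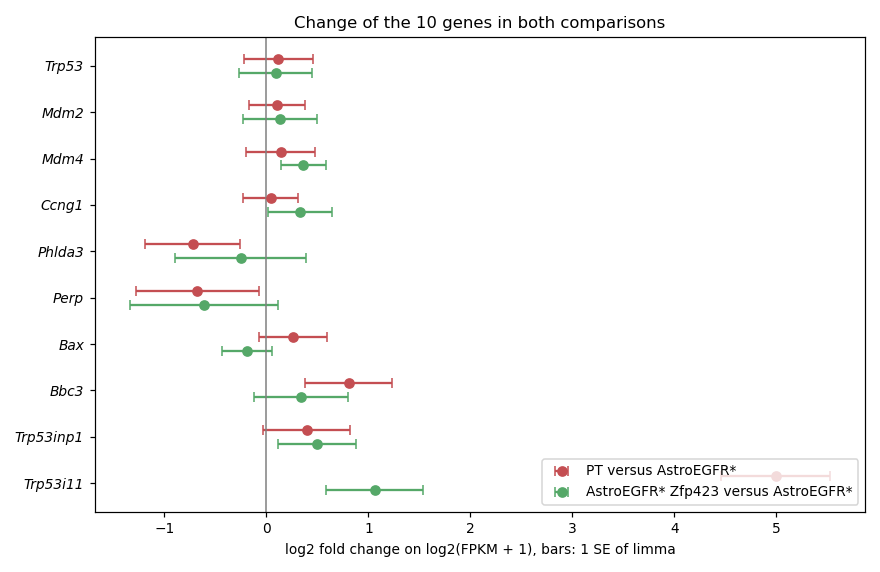
Log2 fold change on log2(FPKM + 1) of the 10 genes, in PT (red) and AstroEGFR* Zfp423 (green) against AstroEGFR*, with bars of 1 SE from limma. Trp53i11 in PT lies at 4.99, and the other 9 genes in PT lie between -0.72 and 0.81.

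PT and AstroEGFR* were compared over all features with limma, a linear model with moderated variances, with Benjamini-Hochberg adjusted p-values and 0.05 as the threshold. The filter on low values, a mean of 1 FPKM or more, left 12261 features, of which 152 (1.24%) passed. All 10 genes passed the filter on low values. One of them, Trp53i11, was past the threshold, but the genes were chosen with this contrast known and nothing is read from that count. The same gene was the 1 of 10 whose groups did not overlap. The log2 fold changes of 8 genes were above 0 and those of 2 below, with a median of 0.13, beside a median of 0.03 and 52.1% above 0 over all features. With the astrocyte batch as a replicate block 475 features passed, and of the 10 genes again 1. Without AstroEGFR*1 it was 7 features and 0 of the 10 genes.

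With Zfp423, limma blocked for the astrocyte batch called 0 of 12366 features (0%), while 913 had an unadjusted p below 0.05. Without the block it called 2. It called 47 without AstroEGFR*2 and 60 without AstroEGFR* Zfp423 2, and none of the 10 genes was among them. With the block, both of these fits rest on the pairs of batches 1 and 3 and are not separate checks. Leaving out AstroEGFR* Zfp423 1 and 2 left AstroEGFR* Zfp423 3 alone in its group. The spread in that fit comes from the AstroEGFR* libraries alone, so nothing is read from its calls. Of the 10 genes, 7 were above 0 and 3 below, with a median log2 fold change of 0.23, beside 0.02 and 51.7% above 0 over all features. Both comparisons share the AstroEGFR* libraries, so their values are set side by side and not correlated.

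**Figure D3:**
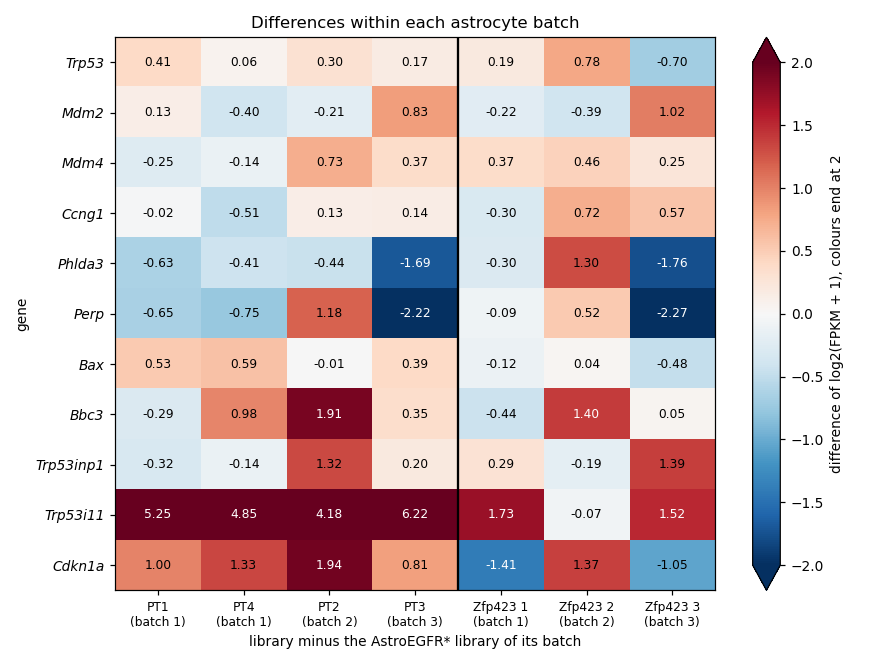
Difference of log2(FPKM + 1) between each PT or AstroEGFR* Zfp423 library and the AstroEGFR* library of its batch (columns), for the 10 genes and Cdkn1a (rows), with red for higher and blue for lower. Trp53i11, Trp53 and Cdkn1a are higher in 4 of 4 PT libraries and Phlda3 is lower in 4 of 4, and Mdm4 is higher in 3 of 3 with Zfp423, where the pairs of batches 2 and 3 are those of the labels. PT1 and PT4 are set against the same AstroEGFR* library, so the 4 PT differences are not independent. The share of all features with 1 direction throughout was not counted, and nothing is read from these counts.

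The other genes of the pathway were taken from lists written from general knowledge, but with earlier results of these data known, so that their counts and p-values are not independent of the data. Of 41 further p53 targets, 40 were in the matrix and 39 passed the filter. In PT, 1 of the 39 was past the threshold and higher, 0 were lower, and 8 (20.5%) had an unadjusted p below 0.05, beside 1664 (13.6%) of all features. These counts come from the fit without the astrocyte batch as a block, although each PT deviated together with the AstroEGFR* of its batch. No excess of the p53 targets is read from them. Their log2 fold changes were above 0 in 23 and below 0 in 16, with a median of 0.14, and 7 of the 39 had groups that did not overlap. Of all features 1.24% were called and 14.8% had groups without overlap.

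The called target was Sulf2, a secreted enzyme that removes sulfate groups from heparan sulfate chains at the cell surface. It was 19.2, 20.7 and 20.2 FPKM in AstroEGFR*1, 2 and 3 and 134.9, 90.8, 79.4 and 165.6 FPKM in PT1 to PT4. Its log2 fold change was 2.43 (SE 0.30, limma adjusted p = 0.0136), higher in 4 of 4 PT libraries. The adjusted p ranged from 0.0135 to 0.0862 over 17 other settings, and 12 of them kept the call. It was lost without AstroEGFR*1, without AstroEGFR*3 alone or together with PT3, and with all 10 libraries in 1 fit. With Zfp423 Sulf2 was 59.4, 38.8 and 8.60 FPKM in batches 1, 2 and 3.

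Cdkn1a, the p21 inhibitor of cyclin-dependent kinases whose promoter is shown above, was 63.5, 17.3 and 56.0 FPKM in AstroEGFR*1, 2 and 3 and 127.9, 69.1, 99.2 and 161.6 FPKM in PT1 to PT4. Every PT was above every AstroEGFR*, by 0.81 to 1.94 within the batches on the log2 scale. The log2 fold change was 1.44 (SE 0.50) and missed the limma threshold, with an adjusted p of 0.268 that ranged from 0.0559 with the replicate block to 0.467. It became 0.86 without AstroEGFR*2, the library with the lowest level, and 1.77 without AstroEGFR*1. With Zfp423 Cdkn1a was 23.3, 46.2 and 26.5 FPKM, lower in batches 1 and 3 and higher in batch 2, with a log2 fold change of -0.36 (SE 0.63, limma adjusted p = 0.887) that lay between -1.23 without AstroEGFR* Zfp423 2 and 0.16 without AstroEGFR* Zfp423 1.

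Another 6 targets had an unadjusted p below 0.05 in PT, and they are named after their values were seen. The log2 fold changes were 2.22 (SE 0.71) for Gadd45a, a stress sensor of cell cycle arrest and repair, 1.32 (SE 0.46) for Sesn2, which restrains mTORC1, and 0.94 (SE 0.32) for Fdxr, a mitochondrial reductase. Tigar, which lowers glycolytic flux and is listed under 9630033F20Rik, had 0.72 (SE 0.23). Fas, the death receptor, had -1.46 (SE 0.46) and Ak1, an adenylate kinase, -1.21 (SE 0.27). Their limma adjusted p lay between 0.0931 for Ak1 and 0.263 for Sesn2, so none passed. By role, the log2 fold changes were above 0 in 5 of 9 arrest genes, 6 of 10 cell death genes, 2 of 5 repair genes, 5 of 7 metabolic genes, 1 of 3 feedback genes and 4 of 5 secreted, membrane and autophagy genes.

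**Figure D4:**
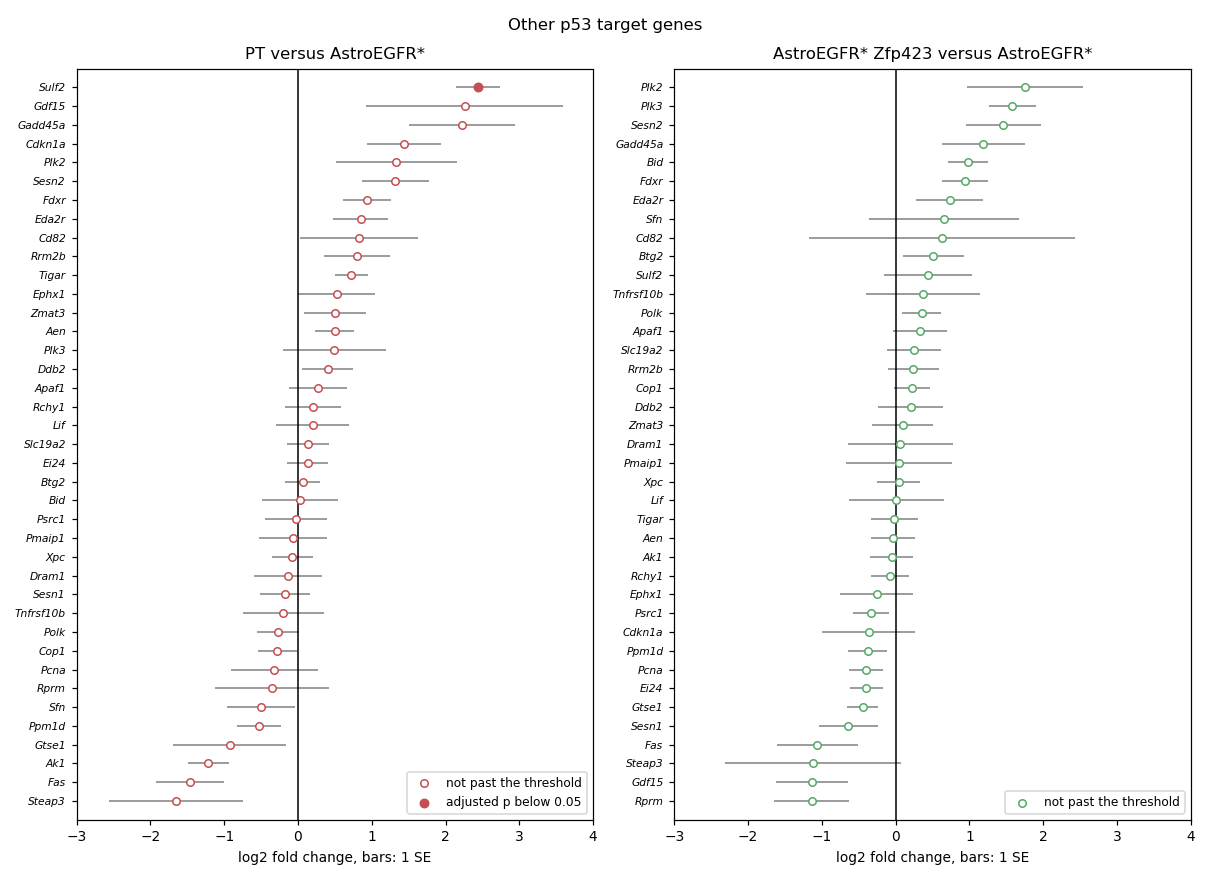
Log2 fold change on log2(FPKM + 1) of 39 other p53 target genes in PT (left) and AstroEGFR* Zfp423 (right) against AstroEGFR*, ordered by size, with bars of 1 SE from limma and a filled point for an adjusted p below 0.05. Sulf2 in PT, at 2.43, is the one filled point, and the genes lie on both sides of 0 in each comparison.

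With Zfp423, 0 of 39 p53 targets passed limma and 4 (10.3%) had an unadjusted p below 0.05, beside 7.38% of all features. The log2 fold changes were above 0 in 23 and below 0 in 16, with a median of 0.07. The smallest p-values belonged to Plk3, a stress-induced polo-like kinase, with a log2 fold change of 1.58 (SE 0.32), to Bid, which links death receptors to mitochondria, with 0.98 (SE 0.27), and to Fdxr with 0.94 (SE 0.31). All 3 had a limma adjusted p of 0.628. Plk3 was 8.93, 14.0 and 23.9 FPKM against 3.61, 4.46 and 4.50 FPKM in AstroEGFR*, and it was also 14.3 and 17.1 FPKM in PT2 and PT3 but 2.70 and 1.74 FPKM in PT1 and PT4.

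Of 20 p53 relatives and regulators, 17 passed the filter in each comparison. Trp63 and Trp73, the p53 relatives, did not, and stayed below 1 FPKM in all libraries. In PT 0 of 17 passed limma, beside 1.24% of all features, 0 had an unadjusted p below 0.05, beside 13.6%, and the median log2 fold change was 0.01. The smallest p-values were those of Ppp1r13b, a p53-binding protein of the ASPP family (-0.65, SE 0.29, adjusted p = 0.395), Trp53i13 (0.47, SE 0.22, adjusted p = 0.406) and Ppp1r13l, the inhibitory ASPP member (-0.96, SE 0.59, adjusted p = 0.545). These counts and p-values come from the fit without a block. With the astrocyte batch as a block the limma adjusted p were 0.239, 0.174 and 0.0929. Each PT was above the AstroEGFR* of its batch in Trp53i13 and below it in Ppp1r13l. With Zfp423 0 of 17 passed limma, as did 0% of all features, 1 of 17 (5.88%) had an unadjusted p below 0.05, beside 7.38%, and the median was 0.10. That gene was Trp53inp2, an autophagy factor related to Trp53inp1, at -1.02 (SE 0.24, limma adjusted p = 0.628). The coactivator gene Crebbp (0.94, SE 0.41) and Usp7, which deubiquitinates p53 and Mdm2 (0.45, SE 0.24), came next. Both differed little in batch 2 (Crebbp 18.0 against 16.5 FPKM, Usp7 41.9 against 38.6 FPKM). Crebbp differed most in batch 3 (14.8 against 3.34 FPKM) and Usp7 in batch 1 (34.3 against 19.5 FPKM).

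Cdkn2a, the locus that the labels give as knocked out, was listed at 6.92, 3.96 and 29.1 FPKM in AstroEGFR*1, 2 and 3 and PT1 to PT4 had 7.48, 7.34, 129.7 and 9.01 FPKM. It was 5.46, 4.10 and 6.29 FPKM in AstroEGFR* Zfp423 1, 2 and 3. The value covers the whole gene and does not say which exons gave fragments, so it does not check the deletion. PT3 and AstroEGFR*3, both of batch 3, were highest. The log2 fold changes were 0.72 (SE 1.08, limma adjusted p = 0.841) in PT and -0.77 (SE 0.51, adjusted p = 0.696) with Zfp423. The former was -0.25 without PT3, and the latter -0.13 without batch 3.

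Of 11 other Bcl2 family genes, 9 passed the filter in PT and 10 with Zfp423, and 0 passed limma in either, beside 1.24% and 0% of all features. In PT the median log2 fold change was -0.29, with 3 above 0 and 6 below, and 1 of 9 (11.1%) had an unadjusted p below 0.05, beside 13.6% of all features. That gene was Bcl2, the survival protein that Bax and Bbc3 act against, at 12.5, 9.29 and 8.02 FPKM in AstroEGFR* and 3.93, 6.41, 4.45 and 2.88 FPKM in PT. Its groups did not overlap, as in 2 of the 9 and in 14.8% of all features, and the log2 fold change was -1.03 (SE 0.30, limma adjusted p = 0.178). Bcl2l11, the BH3-only protein Bim (-0.91, SE 0.39, adjusted p = 0.370), and the survival gene Mcl1 (-0.33, SE 0.26, adjusted p = 0.642) followed. The former became -0.59 without AstroEGFR*1, and the latter -0.19 without PT2. With Zfp423 the median was 0.26 and 0 had an unadjusted p below 0.05, beside 7.38% of all features. The BH3-only gene Bik was highest (1.08, SE 0.69), at 6.39 FPKM in AstroEGFR* Zfp423 2 and at most 0.787 FPKM elsewhere, beside Bcl2l2 (0.38, SE 0.27) and Bak1 (0.34, SE 0.26).

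Among themselves the 10 genes did not vary as 1 unit. Over the 10 libraries, which differ in batch, group and composition, Pearson's r of log2(FPKM + 1) was highest for Trp53 with Bax (0.64) and Trp53 with Mdm4 (0.61), and lowest for Mdm2 with Phlda3 (-0.74) and Bax with Trp53inp1 (-0.63). Among the 12476 features whose mean over the 10 libraries reached 1 FPKM, those most like Trp53 were Fpgs (r = 0.95), Ifi44 (0.93) and Itga5 (0.93). Those most like Mdm2 were Slc35a3 (0.95), Hk2 (0.91) and Nceh1 (0.90), and those most like Ccng1 were Smcr8 (0.95), Zfp106 (0.84) and Csnk1g1 (0.82). Trp53i11 was followed most closely by Cacng5 (0.96), Pfkfb3 (0.95) and Htr3a (0.94). None of these features was a member of the p53 lists, which was likely in any case with 3 of 12476 features looked at per gene.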

How the data were processed

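RNA of 10 cultures was sequenced, 1 library each. The authors deposited 1 matrix of FPKM for 23230 features named by gene symbol, and no fragment counts were used here. The submitters' processing notes name TopHat 1.3, Cuffnorm and mm9. The labels name a TruSeq kit and a lentiviral Zfp423 vector, whereas the methods name RiboZero and stranded kits and a retroviral one. How an alignment or normalisation choice affects low values cannot be checked from FPKM.

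Features whose mean over the libraries compared reached 1 FPKM were fitted on log2(FPKM + 1) with limma 3.58.1 in R 4.3.3 (trend, Benjamini-Hochberg over all features), for PT against AstroEGFR* without a block and for Zfp423 with the astrocyte batch as a block, a replicate number that marks the same astrocyte culture. Such fold changes understate changes of low genes, and p-values measure the spread between these cultures. Libraries of 1 batch deviated together from their group means in PT (r = 0.35, 0.43, 0.50 and 0.42 with the AstroEGFR* of the same batch for PT1 to PT4), but in 1 of 3 Zfp423 libraries alone (0.24, -0.11 and -0.26).

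The members and gene lists were chosen with earlier results of these data known. From the lists, Cdkn1a, Cdkn2a, called genes and, where a list had none, the 3 smallest p-values were named, and for 4 genes the 3 most alike features. Alternatives were a pseudocount of 0.1, no filter, median-ratio scaling, FPKM rescaled without small non-coding RNA and histone features, no trend, all libraries in 1 fit, the block or none, PT1 and PT4 averaged, and libraries left out. The scripts were tested on simulated data. Figures used matplotlib 3.10.9 in Python 3.11.15.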

Additional observations from a re-analysis of the deposited data

Results flagged for a closer look

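In groups of 4 to 10 libraries, which PT alone was, a library was marked where its gap to the nearest other, divided by the range of the group, exceeded Dixon's 95% critical value. The rule was applied to FPKM of the 10 genes and of 33 genes of the p53 lists whose values or fold changes the text gives. Of these 43, 4 met it. Chance gives about 1 in 20 groups where values are normally distributed, which FPKM need not be. Trp53i11 was 372.4 FPKM in PT3 against 85.1 to 112.8 FPKM in the other PT. Bax was 201.2 FPKM in PT3 against 109.3 to 122.8 FPKM. Cdkn2a was 129.7 FPKM in PT3 against 7.34 to 9.01 FPKM. Perp was 1.75 FPKM in PT2 against 0.137 to 0.236 FPKM. PT3 thus held 3 of the 4 values marked on FPKM, and it was also the library with the fewest features above 0 (14075, against 14813 to 17030 in the others). The rule was not run on log2(FPKM + 1). On that scale Trp53i11 was 8.54 in PT3 against 6.43 to 6.83 in the other PT. Bax was 7.66 against 6.79 to 6.95, so that PT3 stood out less for both genes.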

How the results depend on the processing

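Against 152 features in PT, limma called 475 with the astrocyte batch as a replicate block (146 higher and 329 lower), 82 with all 10 libraries in 1 fit, 61 with PT1 and PT4 averaged and 8 without AstroEGFR*3 and PT3 together. Leaving out each library in turn gave 7 (AstroEGFR*1) to 123, with 54 without AstroEGFR*3, 97 without PT1, 70 without PT2 and 58 without PT4. Adding the block to the fit without AstroEGFR*3 and PT3 gave 5. With the block, calls changed for 0 of the p53 lists and 0 of the 10 genes. Sulf2, the 1 p53 target called in PT, was lost (0 of the list) with all 10 libraries in 1 fit and without AstroEGFR*3 and PT3 together, with or without the block, and leaving out each library gave 0 to 1. Of the 10 genes, 1 was called in PT, 0 to 1 when each library was left out, and 0 without AstroEGFR*3 and PT3 with the block. Nothing is read from these counts, since the 10 genes were chosen with this contrast known. With Zfp423, 0 features became 2 with no replicate block, 0 to 60 when each library was left out and 12 without AstroEGFR* Zfp423 1 and 2. The fit without AstroEGFR*3 and PT3 with the block, and that without AstroEGFR* Zfp423 1 and 2, were chosen after seeing the data. In the fit without AstroEGFR* Zfp423 1 and 2, AstroEGFR* Zfp423 3 was alone in its group. The spread there comes from the AstroEGFR* libraries alone, so nothing is read from the count of that fit. The cause of these changes was not tested, beyond fewer libraries in the fits that leave some out. The other 134 comparisons of counts with an alternative stayed on the same side. Of 305 log2 fold changes of the 10 genes under alternatives, 8 moved by more than the spread between replicates, all with Zfp423 and in Mdm2, Ccng1, Phlda3, Perp and Trp53i11. The depth is unknown, so what it limits for low genes such as Perp could not be given.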

Other observations

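Of the 39 p53 targets that passed the filter, 15 (38.5%) had both PT2 and PT3 above both PT1 and PT4, 13 (33.3%) had both below and 11 neither, beside 3682 above and 3686 below of all 12261 features. The genes given here were named after the values were seen, and nothing was tested. Gadd45a, Gdf15, Rrm2b, Ddb2 and Tigar had their 2 highest values of the 10 libraries in PT2 and PT3, 5 of the 39 (12.8%) beside 7.76% of all features. The split was small for Tigar (7.99 and 7.73 FPKM in PT2 and PT3 against 7.54 and 7.41 FPKM in PT1 and PT4). Ddb2 in PT2 (3.054 FPKM) was barely above AstroEGFR* Zfp423 1 (3.049 FPKM). Gdf15, a secreted stress cytokine, was 113.9 and 49.7 FPKM in PT2 and PT3 and 0.800 and 5.89 FPKM in PT1 and PT4, with 1.56 to 4.33 FPKM in AstroEGFR*. Gadd45a was 511.0 and 391.8 FPKM in PT2 and PT3, 131.4 and 71.8 FPKM in PT1 and PT4, and 25.0 to 58.6 FPKM in AstroEGFR*. Rrm2b, a ribonucleotide reductase subunit for repair, was 25.8 and 17.9 FPKM in PT2 and PT3 and 7.65 and 7.81 FPKM in PT1 and PT4. The targets Zmat3, an RNA-binding zinc finger protein (9.15 and 11.9 FPKM in PT2 and PT3 against 23.5 and 22.0 FPKM in PT1 and PT4), Ei24 (46.9 and 57.0 FPKM against 84.9 and 81.4 FPKM) and Sulf2 (90.8 and 79.4 FPKM against 134.9 and 165.6 FPKM) ran the other way.

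Gtse1, Chek1 and Pcna, likewise named after the values were seen and not tested, were lower in PT2 and PT3 than in PT1 and PT4. Gtse1, a p53-inducible protein of G2, was 3.46 and 4.15 FPKM in PT2 and PT3 and 32.3 and 19.5 FPKM in PT1 and PT4. Chek1, the checkpoint kinase, was 1.28 and 1.89 FPKM against 10.6 and 7.39 FPKM, and Pcna, the replication clamp, 31.7 and 36.9 FPKM against 135.2 and 92.3 FPKM. The checkpoint kinases Atr (8.46 and 5.63 FPKM against 7.90 and 5.06 FPKM) and Chek2 (8.85 and 5.86 FPKM against 9.45 and 5.86 FPKM) did not share this order. Trp53 itself was 59.5 and 75.2 FPKM in PT2 and PT3 and 45.9 and 36.0 FPKM in PT1 and PT4, whereas Cdkn1a was 69.1 and 99.2 FPKM against 127.9 and 161.6 FPKM. PT1 and PT4 also shared an astrocyte batch, and small non-coding RNA and histone features took 0.801% and 1.10% of their FPKM, against 34.4% in PT2 and 6.12% in PT3. Some cell type markers split in the same way, and others did not. The summed oligodendrocyte lineage markers were 412.0 and 588.3 FPKM in PT1 and PT4 and 89.8 and 65.7 FPKM in PT2 and PT3, and Flt1, listed among endothelial markers, was 10.4 and 9.71 FPKM against 0.508 and 0.343 FPKM, while the other 5 endothelial markers stayed below 0.15 FPKM in all 4. The summed astrocyte markers were also higher in PT1 and PT4 (722.3 and 729.6 FPKM against 607.8 and 344.7 FPKM). The microglia and macrophage markers were lower there (1.94 and 3.19 FPKM against 36.7 and 4.28 FPKM). The fibroblast markers (34.7 and 8.28 FPKM against 1.08 and 371.6 FPKM) and the neuron markers (0.472 and 2.09 FPKM against 6.46 and 1.26 FPKM) did not split. The part of all these markers in these differences was not tested.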
